A study of Oryza sativa with 12 samples.

Results

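The 10 genes described here encode enzymes of the Calvin cycle of the chloroplast, chosen by gene identifier from the 38978 genes of a rice count table. They were followed in embryos of the *Oslec1-1* mutant, called *Oslec1* here, and of its wild type Nipponbare (NIP), each at 7 days after pollination (DAP), the early stage (EE), and at 25 DAP, the late stage (LE). *Oslec1* is a CRISPR/Cas9 mutant of *OsLEC1*, a subunit of the NF-Y transcription factor known for its role in seed maturation, and it carries a frameshift that shortens the protein. It is a single line, each sample was RNA of several embryos, and the NIP plants received no other treatment. Every group had 3 replicates, so the comparison rests on 12 libraries of polyadenylated RNA. A transcript level would not check such a frameshift, and the level of *OsLEC1* itself was not analysed here, because no table used here pairs its symbol with an identifier.

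The Calvin cycle fixes carbon dioxide in the chloroplast stroma and is active in green tissue in the light. After Rubisco, whose genes are not among the 10, phosphoglycerate kinase (PGK) and the A and B subunits of the NADP-dependent glyceraldehyde-3-phosphate dehydrogenase (GAPA and GAPB) reduce the fixed carbon to triose phosphate, using ATP and NADPH from the light reactions. Triose phosphate isomerase (TPI), aldolase, fructose-1,6-bisphosphatase (FBPase), transketolase, sedoheptulose-1,7-bisphosphatase (SBPase), ribulose-5-phosphate 3-epimerase (RPE) and phosphoribulokinase (PRK) then rebuild ribulose-1,5-bisphosphate, the acceptor of carbon dioxide. In plants, SBPase and PRK serve this cycle alone, whereas most of the other reactions also occur in glycolysis, gluconeogenesis or the pentose phosphate pathway.

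On the IRGSP-1.0 genome, the reduction genes are PGK (Os05g0496200, chromosome 5, 24378361 to 24381743), GAPA (Os04g0459500, chromosome 4, 22937162 to 22939010) and GAPB (Os03g0129300, chromosome 3, 1662306 to 1665491). TPI (Os09g0535000) lies on chromosome 9, from 21033103 to 21036506, aldolase (Os11g0171300) on chromosome 11, from 3488768 to 3491609, and FBPase (Os03g0267300) on chromosome 3, from 8841311 to 8843028. Transketolase (Os06g0133800) lies on chromosome 6, from 1808969 to 1812083, and SBPase (Os04g0234600) on chromosome 4, from 9075141 to 9077888. RPE (Os03g0169100, chromosome 3, 3713990 to 3717346) and PRK (Os02g0698000, chromosome 2, 28701864 to 28704291) complete the set. The enzyme names came with the choice of the genes, and no annotation used here checks them or the location of the proteins in the plastid.

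The libraries held 16113922 to 27213238 counts on genes, and no pair of replicates was identical. Values per library are given as CPM, counts scaled to the size of the library after TMM normalization, which also corrects for its composition. Levels of different genes are compared in TPM, which account for gene length as well. TPM values are shares of the whole library, and the median gene was higher in *Oslec1* by 0.70 on the log2 scale at EE when only library size was corrected, against 0.03 after TMM. At LE, these medians were 0.13 and 0.02. EE and LE libraries carry different series of library codes, so stage and library series cannot be told apart. The labels and methods do not say how the embryos of the replicates were divided among plants, so the p-values measure the spread between these samples.

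Of the 10 enzyme genes, 9 were higher in *Oslec1* embryos than in NIP embryos at EE and the same 9 at LE, and 0 were lower at either stage (edgeR quasi-likelihood test, Benjamini-Hochberg adjusted p under 0.05). The number of lower genes was 0 also at an unadjusted p under 0.05, in DESeq2 and in limma on FPKM. Among all genes tested, 30.3% were higher in *Oslec1* at EE and 25.6% at LE, and 26.7% were lower at EE and 21.3% at LE. PRK, GAPA, GAPB, aldolase, SBPase and FBPase were at least 4-fold higher at both stages, which held for 10.9% of all genes at EE and 8.29% at LE. On log2 of FPKM with 1 added, PRK fell short of this limit, with 1.92 at EE and 1.93 at LE in limma. The median log2 fold change of the 10 genes was 3.19 at EE and 3.73 at LE, beside 0.03 and 0.02 over all genes tested. For the 9 genes, all *Oslec1* libraries lay above all NIP libraries at both stages, as they did for 34.4% of all genes at EE and 29.1% at LE. In bulk embryos, fewer cells of a type and less RNA per cell cannot be told apart.

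**Figure D1:**
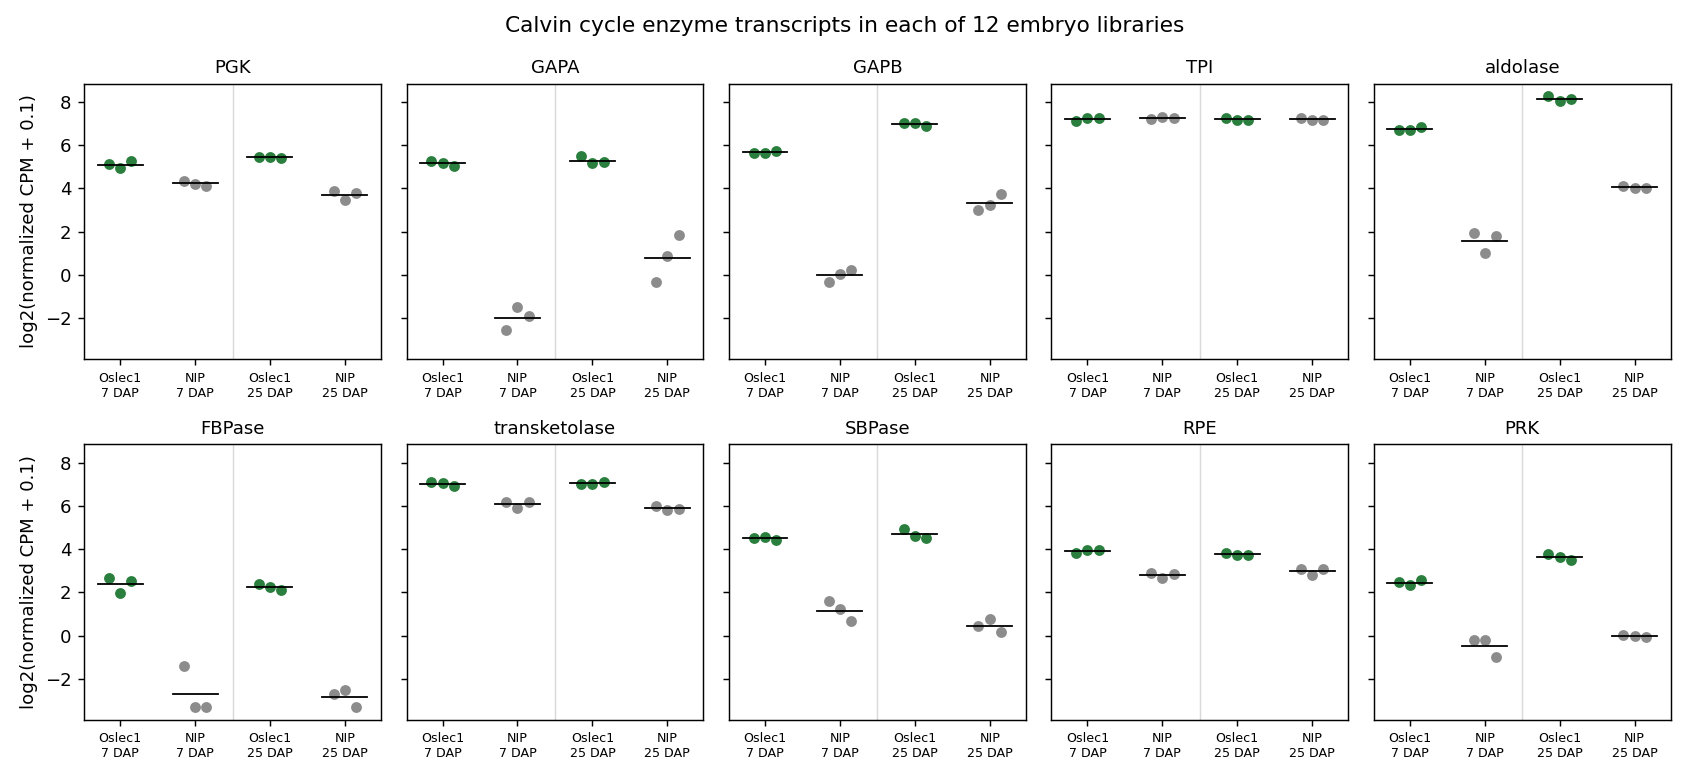
Level of each enzyme gene in the 12 libraries, as log2 of normalized CPM with 0.1 added, with *Oslec1* libraries in green, NIP libraries in gray and a line at the mean of each group. The groups overlap for TPI at both stages, and for the other 9 genes the *Oslec1* points lie above the NIP points at both stages.

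PGK, which spends ATP to phosphorylate 3-phosphoglycerate, was moderately higher in the mutant. At EE, it had 34.6, 30.2 and 38.3 CPM in *Oslec1* embryos and 20.3, 18.5 and 17.1 CPM in NIP embryos. At LE, it had 43.7, 44.0 and 41.9 CPM in *Oslec1* and 14.4, 11.0 and 13.7 CPM in NIP. The groups did not overlap, and the distance between them was wider at LE. Log2 fold changes were 0.88 (SE 0.13, edgeR adjusted p = 0.000237) at EE and 1.76 (SE 0.11, edgeR adjusted p = 4.2e-05) at LE.

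GAPA had the largest fitted fold change of the 10 genes at EE in the main fit, but not under every alternative. Without the first NIP library, FBPase had a fitted value of 9.56 against 7.36 for GAPA on the log2 scale. Both remaining NIP libraries held 0 counts of FBPase, so its value is not a measured fold change. With 3 counts per library as the limit, the FBPase difference was at least 20.9-fold. In limma on log2 of FPKM with 1 added, aldolase had 5.12 and GAPB 4.54, against 4.48 for GAPA. With at least 10 counts in every library, GAPA was not tested. The level of GAPA at EE was 37.9, 36.0 and 33.2 CPM in *Oslec1*, against 0.0687, 0.256 and 0.163 CPM in NIP, where the 3 libraries held 6 counts in all beside 2354 in *Oslec1*. The ratio of these counts, after normalization, was 229-fold with a 95% interval of 105 to 626 that covers counting error only. At LE, GAPA had 45.1, 35.7 and 36.8 CPM in *Oslec1* and 0.703, 1.74 and 3.43 CPM in NIP. The mutant libraries were thus close to each other at both stages, whereas the NIP libraries at LE differed from each other by up to 4.87-fold. On the log2 scale, the fold change was 7.77 (SE 0.24, edgeR adjusted p = 1.27e-08) at EE and 4.31 (SE 0.41, edgeR adjusted p = 0.000217) at LE, and without the third NIP library it was 4.92 at LE.

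GAPB, the subunit that carries the regulatory C-terminal extension of the enzyme, had 50.3, 49.0 and 52.9 CPM in *Oslec1* at EE, against 0.687, 0.940 and 1.06 CPM in NIP. At LE, its level was 129.9, 129 and 119 CPM in *Oslec1* and 7.84, 9.21 and 13.3 CPM in NIP. Both genotypes had more GAPB at LE than at EE, without overlap. GAPB had a log2 fold change of 5.83 (SE 0.16, edgeR adjusted p = 8.76e-09) at EE and 3.66 (SE 0.20, edgeR adjusted p = 1.84e-05) at LE.

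The balance of both subunits was described by their ratio, with no test. The ratio of GAPA to GAPB in TPM was 0.762 ± 0.074 in *Oslec1* at EE and 0.165 ± 0.055 in NIP at EE (SD, n = 3 each), the NIP value resting on 6 and 34 counts. At LE, the ratio was 0.338 ± 0.040 in *Oslec1* and 0.176 ± 0.115 in NIP (SD, n = 3 each). The *Oslec1* ratios ranged from 0.677 to 0.813 at EE and from 0.302 to 0.381 at LE, so GAPA was less abundant than GAPB per length in every mutant library. NIP ratios ranged from 0.106 to 0.213 at EE and from 0.0758 to 0.302 at LE. The highest NIP ratio at LE, 0.3020, was just below the lowest *Oslec1* ratio, 0.3025.

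TPI, which interconverts both triose phosphates, was the exception among the 10 genes. It had 141, 151 and 151 CPM in *Oslec1* and 147, 159 and 152 CPM in NIP at EE, and 151, 144 and 144 CPM in *Oslec1* and 153, 145 and 142 CPM in NIP at LE. The groups overlapped at both stages. The log2 fold change was -0.05 at EE (95% interval -0.25 to 0.15, edgeR adjusted p = 0.664) and 0.02 at LE (95% interval -0.16 to 0.20, edgeR adjusted p = 0.816). The value at EE depended on the scaling, since it was 0.63 (edgeR adjusted p = 0.000119) with library size only, close to the median shift of all genes under that scaling, and 0.86 (limma adjusted p = 0.00047) on log2 of FPKM with 1 added, where the median of all genes was 0.55.

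Aldolase, which forms the bisphosphates of fructose and sedoheptulose, was the most abundant of the 10 genes in *Oslec1* at LE. At EE, it had 104, 105 and 115 CPM in *Oslec1* and 3.71, 1.88 and 3.34 CPM in NIP. At LE, it had 308, 264 and 286 CPM in *Oslec1* and 16.97, 16.1 and 16.1 CPM in NIP. The lowest mutant library at EE thus had more aldolase than any NIP library of either stage. Its log2 fold change was 5.16 (SE 0.18, edgeR adjusted p = 2.56e-08) at EE and 4.15 (SE 0.10, edgeR adjusted p = 1.52e-06) at LE.

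FBPase, which removes a phosphate from fructose-1,6-bisphosphate in a light-regulated step, was close to the limit of detection in NIP. It had 6.31, 3.76 and 5.62 CPM in *Oslec1* at EE, whereas the NIP libraries held 4, 0 and 0 counts. At LE, its level was 5.13, 4.57 and 4.27 CPM in *Oslec1*, and the NIP libraries held 1, 2 and 0 counts. The ratio of the counts after normalization was 51.2-fold at EE (95% interval 19.8 to 189) and 109-fold at LE (95% interval 37.2 to 533), with intervals for counting error only. The fitted log2 fold change was 5.57 (SE 0.61, edgeR adjusted p = 3.98e-05) at EE and 6.64 (SE 0.44, edgeR adjusted p = 4.34e-05) at LE. These values moved with single NIP libraries, and without the NIP library at EE that held the 4 counts, both remaining libraries were at 0, which gives a level at least 20.9-fold higher in *Oslec1*, taking 3 counts per library as the limit. At LE, the log2 fold change was 7.39 without the second NIP library and 6.05 without the third.

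Transketolase, which moves carbon pairs between sugar phosphates and also works in the pentose phosphate pathway, was abundant in both genotypes. It had 139, 135 and 120.0 CPM in *Oslec1* and 71.9, 60.3 and 72.2 CPM in NIP at EE. At LE, the libraries had 130.2, 131 and 137 CPM in *Oslec1* and 64.1, 56.2 and 57.0 CPM in NIP. The mutant level was about the same at both stages and above every NIP library. Log2 fold changes were 0.95 (SE 0.10, edgeR adjusted p = 3.66e-05) at EE and 1.19 (SE 0.08, edgeR adjusted p = 5.75e-05) at LE.

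SBPase, the phosphatase particular to the cycle, had 22.9, 23.2 and 21.6 CPM in *Oslec1* at EE, against 2.89, 2.22 and 1.47 CPM in NIP. At LE, it had 30.2, 24.0 and 22.9 CPM in *Oslec1* and 1.24, 1.59 and 1.02 CPM in NIP. The NIP level was low at both stages, at 18 to 43 counts per library. SBPase had a log2 fold change of 3.34 (SE 0.20, edgeR adjusted p = 5.94e-07) at EE and 4.34 (SE 0.20, edgeR adjusted p = 1.12e-05) at LE.

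RPE, which converts xylulose-5-phosphate to ribulose-5-phosphate, had 13.9, 15.3 and 15.2 CPM in *Oslec1* and 7.42, 6.32 and 7.10 CPM in NIP at EE. At LE, it had 14.2, 13.1 and 13.1 CPM in *Oslec1* and 8.43, 6.81 and 8.24 CPM in NIP. The groups did not overlap at either stage. Its log2 fold change was 1.09 (SE 0.14, edgeR adjusted p = 9.07e-05) at EE and 0.81 (SE 0.12, edgeR adjusted p = 0.0016) at LE. Os03g0169000 covers the whole RPE locus on the opposite strand and had 179 to 357 counts per library, and the strand use of the counting is not given, so reads of both genes may not have been told apart.

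PRK, which phosphorylates ribulose-5-phosphate to the carbon dioxide acceptor, had 5.43, 4.93 and 5.80 CPM in *Oslec1* and 0.756, 0.769 and 0.408 CPM in NIP at EE. At LE, it had 13.4, 12.2 and 11.1 CPM in *Oslec1* and 0.919, 0.888 and 0.856 CPM in NIP. The NIP level stayed under 1 CPM in all 6 libraries. The log2 fold change was 3.04 (SE 0.29, edgeR adjusted p = 1.5e-05) at EE and 3.81 (SE 0.16, edgeR adjusted p = 7.52e-06) at LE. Os02g0697900 on the opposite strand covers 97.4% of the PRK locus, with 20 to 98 counts per library, so the PRK counts are uncertain. The deposited TPM gave another size of the difference, 11.8-fold at EE and 8.84-fold at LE, where the CPM gave 8.36-fold and 13.8-fold.

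**Figure D2:**
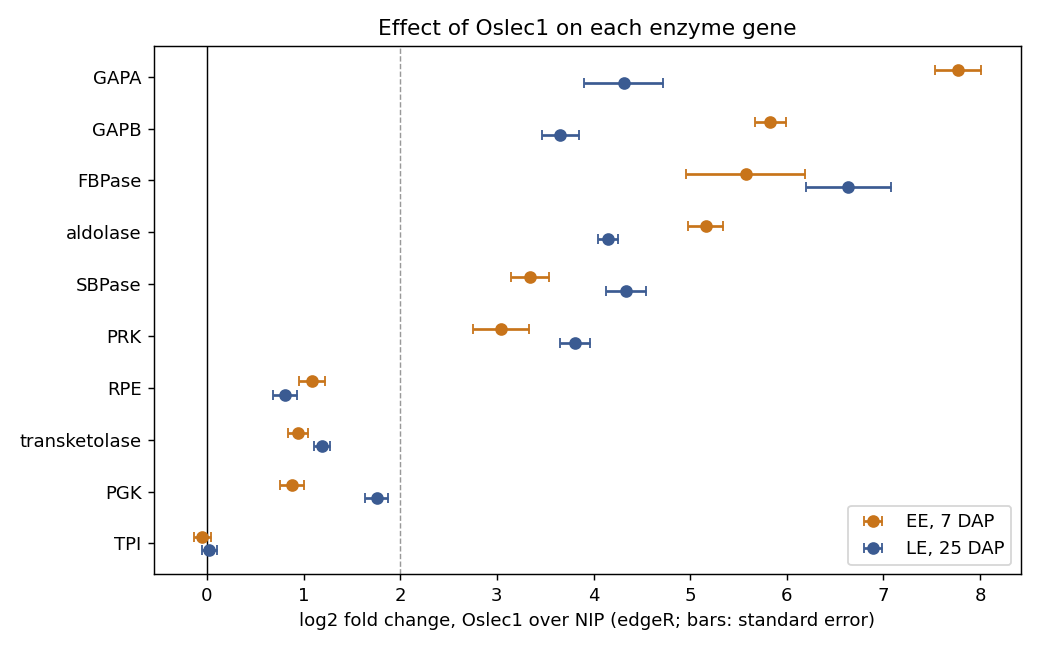
Log2 fold change of *Oslec1* over NIP for each enzyme gene at EE (orange) and LE (blue), from edgeR, with bars of 1 standard error and a dashed line at 2, the limit for a 4-fold difference. GAPA, GAPB, aldolase and RPE lie further right at EE, and the other 6 genes further right at LE, with TPI at -0.05 and 0.02, and not all of these shifts were called.

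Per length, the order of the enzymes differed between the genotypes. In *Oslec1* at EE, transketolase with 131 ± 11.4 TPM, TPI with 126 ± 10.4 TPM and aldolase with 115 ± 9.20 TPM led with overlapping ranges (SD, n = 3 each), followed by GAPB with 40.7 ± 3.19 TPM and GAPA with 30.9 ± 2.26 TPM. In NIP at EE, TPI with 70.7 ± 10.4 TPM and transketolase with 42.3 ± 4.23 TPM led, and RPE and PGK followed with overlapping ranges at 7.08 ± 0.534 and 7.05 ± 0.700 TPM (SD, n = 3 each). Aldolase was at 2.04 ± 0.473 TPM in these NIP embryos, and GAPA with 0.0741 ± 0.0308 TPM and FBPase with 0.0551 ± 0.0954 TPM came last with overlapping ranges.

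In *Oslec1* at LE, aldolase reached 352 ± 24.3 TPM, well above TPI with 132 ± 13.3 TPM and transketolase with 127 ± 3.34 TPM, which overlapped. GAPB followed with 108 ± 4.50 TPM and GAPA with 36.6 ± 4.74 TPM (SD, n = 3 each). In NIP at LE, TPI with 125 ± 4.50 TPM and transketolase with 50.6 ± 2.85 TPM led again, before aldolase with 18.0 ± 1.14 TPM and RPE with 14.7 ± 2.39 TPM (SD, n = 3 each). GAPA, SBPase and PRK overlapped at 1.56 ± 1.41, 1.14 ± 0.244 and 0.839 ± 0.269 TPM, and FBPase was listed at 0 TPM in all 3 NIP libraries. In *Oslec1*, the lowest levels at LE were those of PRK with 7.42 ± 0.452 TPM and FBPase with 4.64 ± 0.505 TPM, which were also the lowest at EE. FPKM gave the same order of the genes in all 4 groups.

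The 10 genes summed to 511 ± 26.8 TPM in *Oslec1* and 131 ± 7.61 TPM in NIP at EE, and to 846 ± 21.0 TPM in *Oslec1* and 228 ± 5.28 TPM in NIP at LE (SD, n = 3 each). In normalized CPM, the sums were 556 ± 2.86 in *Oslec1* and 253 ± 2.64 in NIP at EE and 829 ± 36.6 in *Oslec1* and 257 ± 9.43 in NIP at LE (SD, n = 3 each). The NIP sum was therefore about the same at both stages in CPM but not in TPM.

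The make-up of the summed TPM is given as shares, in which a gene can have a smaller share without a lower level. TPI was 1.78-fold and transketolase 3.09-fold higher in *Oslec1* than in NIP at EE in TPM. At EE, TPI and transketolase made up 24.7% and 25.6% in *Oslec1* and 53.7% and 32.3% in NIP, while aldolase made up 22.5% in *Oslec1* and 1.56% in NIP. GAPB contributed 7.97% in *Oslec1* and 0.335% in NIP at EE, and GAPA 6.06% in *Oslec1* and 0.0564% in NIP. At LE, aldolase made up 41.6% in *Oslec1* and 7.91% in NIP, TPI 15.6% in *Oslec1* and 55.1% in NIP, and transketolase 15.1% in *Oslec1* and 22.2% in NIP. The shares of both genotypes did not overlap for these genes except for transketolase at EE, where the exact two-sided permutation test gave p = 0.2, and for PGK at LE, with 3.32% in *Oslec1* and 3.32% in NIP, it gave p = 1. The other shares and both sums had p = 0.1 in the exact permutation test, the smallest p that 3 against 3 libraries can give, or 0.11 after Benjamini-Hochberg adjustment over the 22 values compared.

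**Figure D3:**
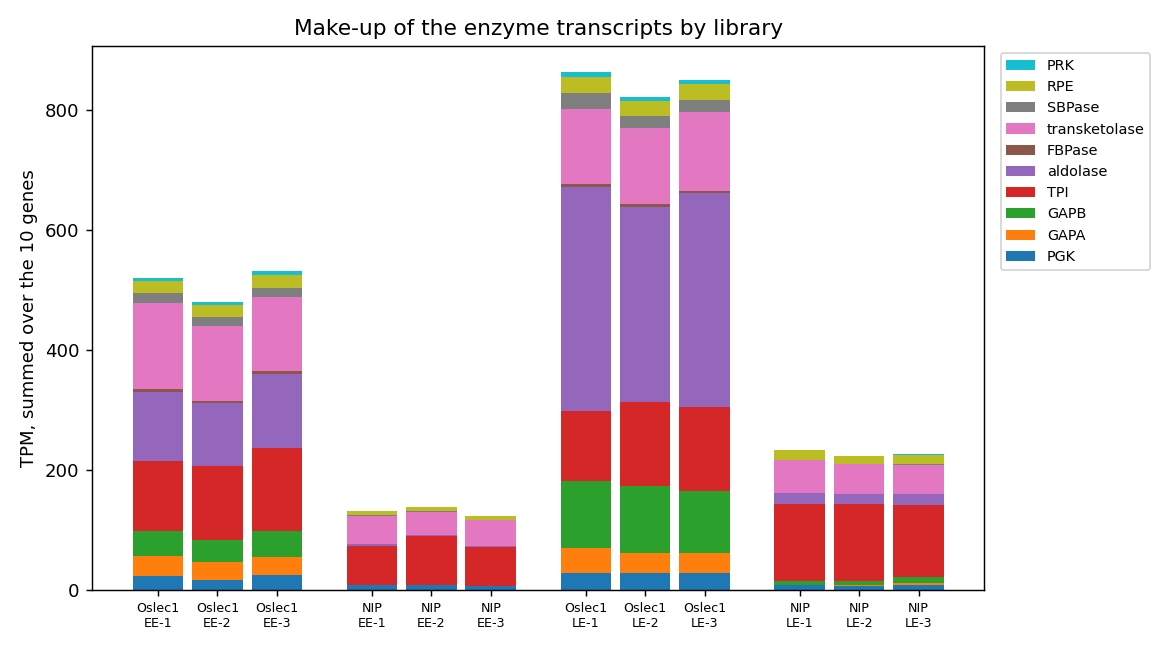
Deposited TPM of the 10 enzyme genes, stacked, in each of the 12 libraries, in *Oslec1* and NIP at EE and at LE. The *Oslec1* bars reach 480 to 531 TPM at EE, with about equal parts of aldolase, TPI and transketolase, and 823 to 864 TPM at LE, with aldolase as the largest part. TPI and transketolase fill most of the NIP bars, which reach 124 to 234 TPM.

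The effect of *Oslec1* was then compared between the stages, as the interaction of genotype and stage over all 12 libraries. Of the 10 genes, 2 had a larger effect at LE, which held for 16.7% of all genes tested, and 3 a smaller one, which held for 16.7% as well. The effect at LE minus that at EE was -3.50 for GAPA (SE 0.76, edgeR adjusted p = 0.00374), -2.20 for GAPB (SE 0.29, edgeR adjusted p = 0.000107) and -1.04 for aldolase (SE 0.22, edgeR adjusted p = 0.00293) on the log2 scale. GAPA and GAPB thus differed by at least 4-fold in this downward direction, as did 4.06% of all genes. The larger effects at LE were those of SBPase with 0.96 (SE 0.30, edgeR adjusted p = 0.0273) and PGK with 0.85 (SE 0.17, edgeR adjusted p = 0.00226).

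Of these 5 calls, those of GAPB and aldolase held under every alternative run, and those of GAPA, SBPase and PGK did not. SBPase lost its call when any of 6 libraries was left out, namely the first or second NIP or the third *Oslec1* library at EE, or the first *Oslec1* or the first or the third NIP library at LE, with adjusted p of 0.0529 to 0.124 in edgeR. Its value was 0.69 without the first NIP library at EE, and both SBPase and PGK lost it with library size only, at 0.42 and 0.30. On log2 of FPKM with 1 added, GAPA had -0.76 (limma adjusted p = 0.0847), SBPase 0.40 and PGK 0.23, none of them called. Without the third NIP library at LE, the difference was -2.86 for GAPA and -1.96 for GAPB, which is below 4-fold. For PRK, the difference between the stages was 0.73 (95% interval 0.06 to 1.41, edgeR adjusted p = 0.103). FBPase had an interval of -1.59 to 3.57 for its difference, and a difference was not detectable with these few NIP counts.

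The stages were also compared within each genotype, and the genes called were only partly the same. GAPB and aldolase were higher at LE in both genotypes. In NIP, GAPA, GAPB and aldolase were higher at LE than at EE, with log2 fold changes of 3.64 (SE 0.68, edgeR adjusted p = 0.00055), 3.51 (SE 0.23, edgeR adjusted p = 9.45e-08) and 2.44 (SE 0.17, edgeR adjusted p = 1.41e-07). These 3 genes stood beside 31.1% of all genes that were higher at LE in NIP and 8.17% that were at least 4-fold higher. SBPase and PGK were lower at LE in NIP, where 28.6% of all genes were lower, with -0.77 (SE 0.25, edgeR adjusted p = 0.0178) and -0.52 (SE 0.12, edgeR adjusted p = 0.00296). Neither of these falls was seen with library size only, where SBPase had -0.23 and PGK 0.03, nor on FPKM, where SBPase had -0.00 and PGK 0.06. Without the third NIP library at LE, GAPA had 2.999, and the fall of SBPase was not called without it or without the first NIP library at EE. Transketolase had -0.21 in NIP (edgeR adjusted p = 0.0822) and was called lower without the second NIP library at EE or the first at LE, with -0.29 and -0.27. With library size only, transketolase was instead called higher, with 0.34 (edgeR adjusted p = 0.00589). On FPKM, it had 0.23 and was not called (limma adjusted p = 0.0626).

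In *Oslec1*, 4 of the 10 genes were higher at LE than at EE and 0 were lower, among 29.1% of all genes that were higher and 27.1% that were lower. An unadjusted p under 0.05, DESeq2 and limma on FPKM gave 0 lower genes as well. They were aldolase with a log2 fold change of 1.40 (SE 0.13, edgeR adjusted p = 3.1e-06), GAPB with 1.31 (SE 0.15, edgeR adjusted p = 1.14e-05), PRK with 1.18 (SE 0.16, edgeR adjusted p = 4.37e-05) and PGK with 0.33 (SE 0.12, edgeR adjusted p = 0.0282). PGK lost its call when any of 5 libraries was left out, namely the first or second *Oslec1* library at EE or any *Oslec1* library at LE, with values of 0.24 to 0.35 and adjusted p of 0.0507 to 0.117 in edgeR, and on FPKM, with 0.29 (limma adjusted p = 0.096). PRK was 2.27-fold higher at LE in CPM but 1.33-fold in TPM, and its difference on FPKM was 0.26 (limma adjusted p = 0.0953). GAPA had 0.14 in *Oslec1* (95% interval -0.44 to 0.71, edgeR adjusted p = 0.684), against 3.64 in NIP. SBPase, FBPase, TPI, RPE and transketolase had values between -0.17 and 0.19 in *Oslec1*, none of which was called in edgeR, while SBPase was called on FPKM, with 0.40 (limma adjusted p = 0.0292).

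**Figure D4:**
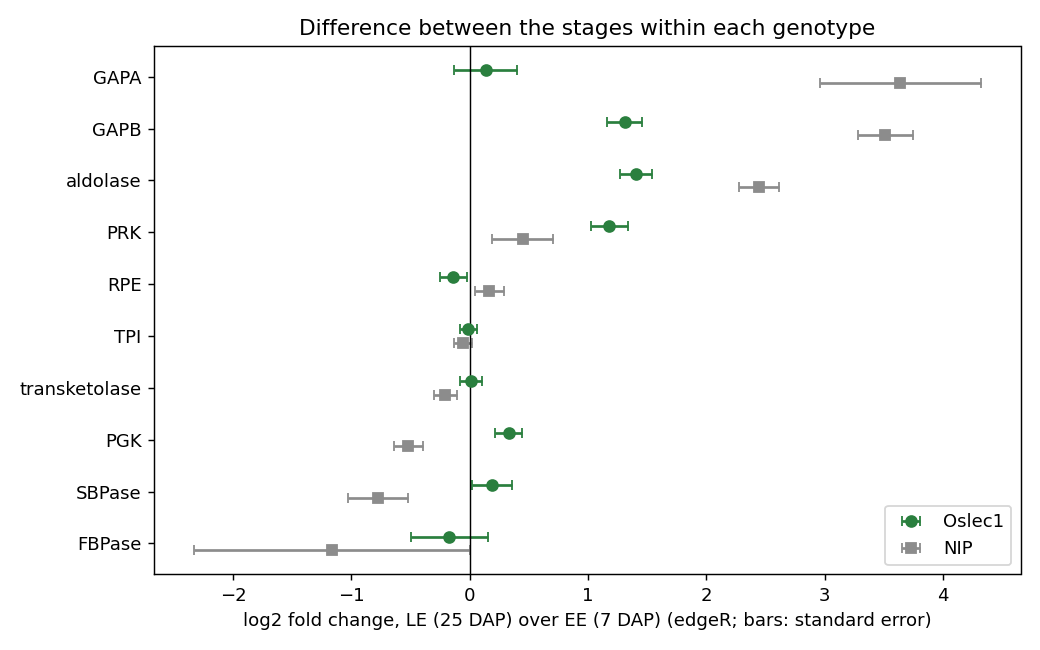
Log2 fold change of LE over EE for each enzyme gene within *Oslec1* (green circles) and within NIP (gray squares), from edgeR on all 12 libraries, with bars of 1 standard error. GAPA, GAPB and aldolase lie near 3.64, 3.51 and 2.44 in NIP and near 0.14, 1.31 and 1.40 in *Oslec1*.

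The spread of the replicates differed between the groups. The SD of the CPM was 3.69% to 11.9% of the mean in *Oslec1* at EE for the genes other than FBPase, which had 25.2%. In NIP at EE, it was 21.3% to 57.6% for PRK, GAPA, GAPB, aldolase and SBPase, whose counts were between 1 and 54 per library. FBPase, with 4, 0 and 0 counts, had 173% there. At LE, PRK had 9.55% in *Oslec1* and 3.52% in NIP, the NIP value resting on 17 to 24 counts per library. Aldolase had 7.79% in *Oslec1* and 3.08% in NIP, whereas GAPA had 13.03% in *Oslec1* and 70.3% in NIP. GAPB had 28.2% and FBPase 89.7% in NIP at LE. TPI had 2.52% to 4.01% in the 4 groups, and the highest of these values was below the highest of every other gene.

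Across the 12 libraries, PRK and SBPase, the enzymes particular to the cycle, were each compared with 16222 other genes. These genes had a mean of at least 5 CPM or were among the 10 enzyme genes, which were kept at any level. The measure was the Pearson correlation of log2 of CPM with 1 added. These values describe the pattern over 4 groups that share their libraries, and no test was made. Most like SBPase were Os08g0560900 with r = 0.994, Os01g0600900 with 0.992, Os01g0720500 with 0.991, Os12g0420400 with 0.990 and Os08g0200300 with 0.989. All 5 are in the gene list for photosynthesis that came with the study. That list was drawn from genes that differed between *Oslec1* and NIP in these same data, so it is not independent of the pattern. The genes most like PRK were Os03g0603200 and Os04g0557800 with r = 0.994 each, Os09g0537700 with 0.993, Os12g0203200 with 0.991 and Os03g0293100 with 0.990, none of which is in the copy of that list used here.

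Within the 10 genes, SBPase was most like FBPase with r = 0.986, followed by transketolase with 0.978 and PGK with 0.957, and less like aldolase with 0.888 and GAPB with 0.853. PRK was most like aldolase with r = 0.955. GAPB and aldolase had r = 0.992 with each other, and TPI had negative values between -0.41 and -0.13 with the other 9 genes. The group means of TPI lay between 147 and 152 CPM, so its correlations rest on small differences and do not show an opposite change. All these correlations were computed over the same 12 libraries.

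Markers of the endosperm, the storage tissue that surrounds the embryo, moved with the genotype as well. The 13 markers, among them 9 glutelin storage proteins, summed to 41781 to 44234 CPM in *Oslec1* and 4901 to 6050 CPM in NIP at EE, with 13 of 13 higher in *Oslec1*. At LE, they summed to 86.3 to 713 CPM in *Oslec1* and 35.8 to 93.9 CPM in NIP, with 9 of the 10 tested higher, and none of them was at 0 in all libraries of a group. The 5 embryo markers summed to 700.2 to 793 CPM in *Oslec1* and 21198 to 24803 CPM in NIP at EE and to 492 to 689 CPM in *Oslec1* and 1919 to 2227 CPM in NIP at LE, with 4 lower and 1 higher in *Oslec1* at each stage. The oleosin genes Os04g0546500 and Os03g0699000 and the Em gene Os05g0349800 made up nearly all of these sums. The paper reports that storage products, lipid bodies among them, were nearly missing from *Oslec1* embryos at EE. It also reports that most of the *OsLEA* genes that changed, a group of stress response genes, were lower in the mutant. Whether these sums follow the amount of embryo tissue was not tested. Of the meristem genes, Os03g0727000 had 13.8 to 17.6 CPM in *Oslec1* and 30.8 to 36.5 CPM in NIP at EE, and Os07g0129700 had 20.1 to 30.6 CPM in *Oslec1* and 7.69 to 11.1 CPM in NIP. The endosperm markers were far less abundant at LE than at EE in both genotypes. Their median sum at LE was still higher in *Oslec1*, with 317 CPM against 58.1 CPM in NIP. The part of endosperm tissue in the levels of the enzyme genes was not tested.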

How the data were processed

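RNA of *Oslec1* and NIP embryos was measured in 3 replicates per genotype and stage. Per the methods, Trimmomatic 0.36 cleaned the reads and HISAT2 2.1.0 aligned them to IRGSP-1.0, and the authors deposited counts per gene without normalization, and the counting program is not given in the sources used here. FPKM and TPM per gene and library were deposited in the form that StringTie 1.3.4d writes, per gene length and library total. A count of 0 allows up to 3 counts in a library.

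Counts were tested in R 4.3.3 with edgeR 4.0.16 (filterByExpr, TMM, quasi-likelihood test, Benjamini-Hochberg adjustment over all genes tested), on the 6 libraries of each stage for genotype and on all 12 for the stages and the interaction. Calls were made at an adjusted p under 0.05, and with a log2 fold change of at least 2 for the 4-fold calls. Printed standard errors are the log2 fold change over the root of the F statistic, and 95% intervals use the degrees of freedom of the fit. CPM used TMM factors of all 12 libraries. Shares of summed TPM were compared with exact permutation tests. The test scripts were tested on simulated data.

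Alternatives were other scalings (library size only, RLE factors, or TMM with the 50 most abundant genes left out), other filters (none, or a minimum of 10 counts in each library), DESeq2 1.42.0, limma 3.58.1 on log2 of FPKM with 1 or 0.1 added (FPKM of at least 0.5 in 3 libraries), all 12 libraries in one fit, glmTreat with a log2 limit of 2, a replicate block and the omission of each replicate. Python 3.11.15 was used for tables (pandas 2.3.3, scipy 1.17.1, numpy 2.4.6) and for figures (matplotlib 3.10.9).

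All 10 enzyme genes are named. The genes and lists were chosen with earlier results of these data known. Lists of related enzymes by description and sequences were not used here, since no table used here pairs the identifiers with descriptions. The marker names are from general knowledge and were not checked against an annotation.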

Additional observations from a re-analysis of the deposited data

Results flagged for a closer look

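The effect of *Oslec1* differed between the stages for 5 enzyme genes by the interaction test of edgeR on 12 libraries. Among all genes tested, 16.7% had a larger effect at LE and 16.7% a smaller one. The log2 effect at LE minus that at EE was -3.50 for GAPA, -2.20 for GAPB and -1.04 for aldolase, and 0.96 for SBPase and 0.85 for PGK, and stage and library series cannot be told apart. On log2 of FPKM with 1 added, GAPA (-0.76, limma adjusted p = 0.0847), SBPase (0.40) and PGK (0.23) were not called. With library size only, SBPase (0.42) and PGK (0.30) were not called either. SBPase also lost its call when certain single libraries were left out, with adjusted p of 0.0529 to 0.124 in edgeR.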

How the results depend on the processing

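The 9 enzyme genes higher in *Oslec1* at EE and LE kept their direction and their call under every alternative in which they were tested. With at least 10 counts in every library, fewer genes were tested, and 3 were at least 4-fold higher at EE. PRK was below 4-fold on FPKM with 1 added, at 1.92 and 1.93, which left 5 such genes at each stage. TPI changed sign at EE with library size only (0.63), at least 10 counts (0.028) and limma on FPKM with 1 (0.86) or 0.1 (0.88) added, and at LE with TMM without the most abundant genes (-0.0063), in the fit of all 12 libraries (-0.0016) and between replicates left out (-0.023 to 0.054).

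For the interaction, library size only gave 0 higher and 5 lower genes, which were GAPA, GAPB, aldolase, TPI at -0.50 and RPE at -0.85, with transketolase at -0.33 and not called, beside a median of all genes of -0.59. limma on FPKM with 1 added gave 0 higher and 5 lower, 0 of them 4-fold, which were GAPB, aldolase, TPI at -0.83, RPE at -0.63 and transketolase at -0.36, while GAPA at -0.76 and FBPase at -0.071 were not called. The median of all genes was -0.41 on FPKM. At least 10 counts left 1 gene 4-fold lower. With replicates left out, 1 to 2 genes were higher, 1 to 2 were 4-fold lower, and FBPase lay between -3.29 and 1.72.

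For the stages in NIP, library size only gave 7 higher and 0 lower genes, with TPI at 0.49, PGK at 0.027 and transketolase at 0.34. The median of all genes was 0.60 under that scaling. On FPKM, limma gave 5 higher and 0 lower, with 0.80, 0.060 and 0.23 for these genes, beside a median of all genes of 0.40. With replicates left out, 1 to 3 genes were lower and FBPase lay between -1.89 and 3.11. In *Oslec1*, TPI was at 0.0068 with RLE factors, 0.0010 without a filter, 0.0090 in DESeq2 and -0.045 to 0.0072 with replicates left out. RPE was at 0.25 on FPKM, and transketolase at -0.13 on FPKM and -0.049 to 0.054 with replicates left out. The cause of these changes was not tested.

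Deviations of same-numbered replicates of both genotypes from their group means had correlations of 0.105, -0.012 and -0.055 for EE and of 0.398, -0.024 and 0.211 for LE. Pairs with different numbers lay between -0.433 and 0.323 at LE, so these values do not settle whether replicates were paired there. With the replicate number as a block, 9 genes were higher in *Oslec1* at each stage, and no call of an enzyme gene changed. Depth limits the values of FBPase and GAPA in NIP, which rest on 3 to 6 counts in a group except for GAPA at LE.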
